A study of Mus musculus with 2 samples.

Results

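The coagulation and fibrinolysis genes described here were 9 of the 32285 genes counted in aortic single cells of atherosclerotic mice: Vwf, Procr, F3, Tfpi, Plat, Plaur, Pros1, F10 and F7. They were chosen by symbol, and each symbol matched 1 row in both count matrices. The cells came from 2 libraries, with 1 library per group. The WT library was made from aortas of mice lacking ApoE (ApoE-/-) on a C57BL/6 background, fed a Western diet. The EC-iCD45KO library came from mice that shared the ApoE-/- C57BL/6 background and the diet and carried in addition a deletion of CD45, inducible with tamoxifen, in endothelial cells (EC). Both sets of aortas were digested to single cells, cells with the endothelial surface protein CD31 were enriched on beads, and single-cell RNA-seq libraries were made on the 10x Genomics platform. The Cre driver, the treatment of the WT mice with tamoxifen, the age of the mice and the number of animals pooled per library are not given in the sources used here.

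Blood clotting starts when tissue factor (F3), held on cells outside the vessel lining, meets circulating factor VII (F7) and activates factor X (F10). The vessel lining opposes this with tissue factor pathway inhibitor (Tfpi) and with the protein C system, in which the endothelial protein C receptor (Procr) presents protein C and protein S (Pros1) serves as cofactor. Von Willebrand factor (Vwf), stored in endothelial cells, tethers platelets, and clots are dissolved by plasmin, which tissue plasminogen activator (Plat) generates and which the urokinase receptor (Plaur) helps to focus on cell surfaces.

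After filtering, 35553 WT and 26064 EC-iCD45KO cells remained, with medians of 1548 and 1405 UMIs (unique molecular identifiers, 1 per captured RNA molecule) per deposited barcode. Cells were grouped in 13 named classes by markers that excluded the 9 genes, and 31.8% of WT and 15.8% of EC-iCD45KO cells stayed unnamed. EC-like cells made up 9.61% and 16.1% of cells after the enrichment for CD31, macrophage-like cells 8.58% and 35.4%, and B-like cells 16.2% and 1.28%. The 2 libraries shared 340 cell barcodes. Ptprc, which encodes CD45, stood at 284 CPM (counts of the gene per 1000000 UMIs of the class) in WT and 113 CPM in EC-iCD45KO EC-like cells, and it was lower in EC-iCD45KO in 9 other classes too, among them fibroblast-like cells at 289 and 109 CPM and SMC-like cells (smooth muscle cells) at 168 and 79.7 CPM. B cell markers in EC-like cells summed to 1180 and 95.2 CPM. The part of Ptprc that was deleted is not given in the sources used here, so UMIs of this gene need not check the deletion. With 1 library per group no test between the groups was possible. All intervals are exact 95% intervals that cover counting error only, and a difference between the libraries cannot be told apart from a difference between these 2 preparations.

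**Figure D1:**
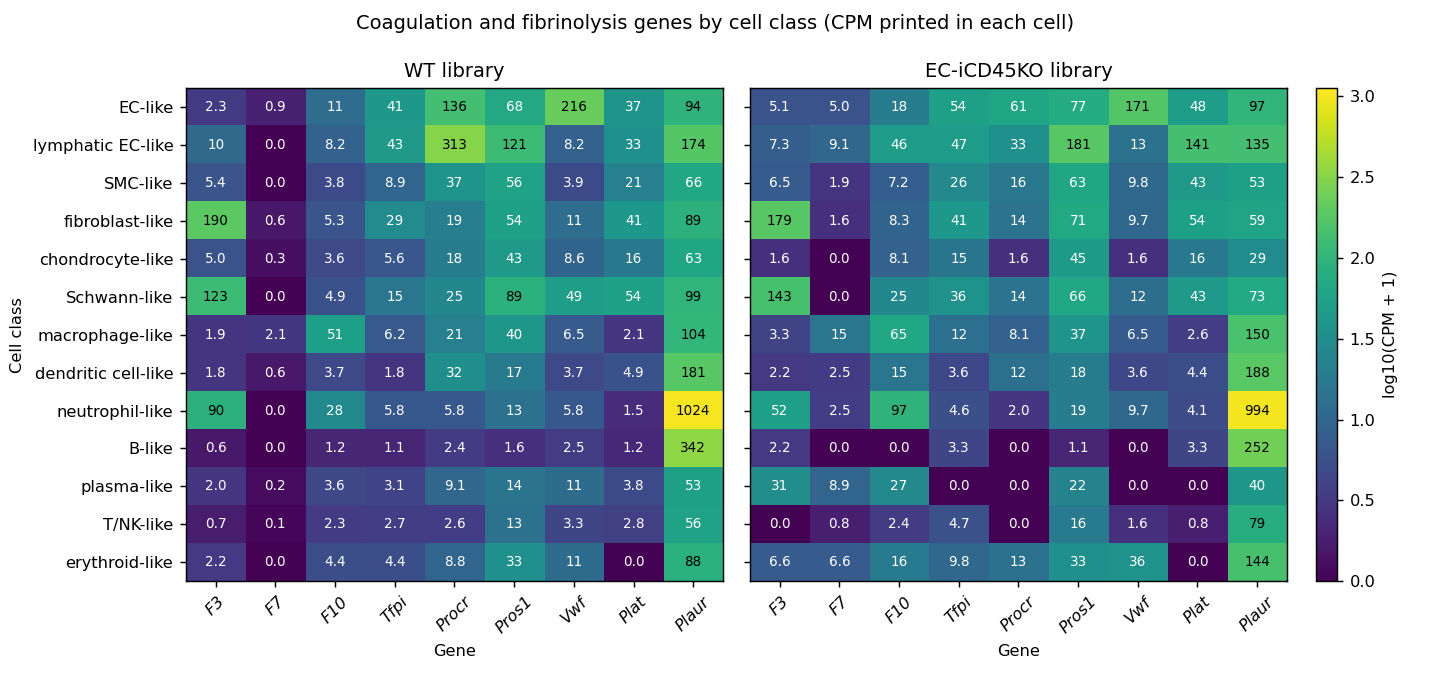
CPM of the 9 genes (columns) in the 13 named cell classes (rows), WT library on the left and EC-iCD45KO library on the right, with the CPM printed in each field and the colour giving log10(CPM + 1). Plaur stood at 1024 and 994 CPM in neutrophil-like cells, Vwf was highest in EC-like cells and F3 in fibroblast-like cells of both, and Procr was highest in lymphatic EC-like cells of the WT library only.

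F3, tissue factor, was a gene of fibroblast-like, Schwann-like and neutrophil-like cells in both libraries. Fibroblast-like cells held 680 F3 UMIs in the WT library and 796 in the EC-iCD45KO library, or 190.2 CPM (176 to 205) and 179 CPM (167 to 192). The log2 ratio of the EC-iCD45KO over the WT library was -0.09 (-0.24 to 0.06). This ratio depended on the processing: it was -0.37 at a finer clustering, -0.36 without doublet removal and 0.22 with the mean of single-cell CPM. Schwann-like cells, the glia of nerves in the vessel wall, stood at 123 CPM (79.8 to 182, 25 UMIs) and 143 CPM (121 to 168, 147 UMIs), so that their intervals overlapped between the libraries. Neutrophil-like cells stood at 90.4 CPM (69.3 to 116) and 51.9 CPM (42.3 to 63.0), 1.74-fold lower in EC-iCD45KO. Their deeper cluster was lower in EC-iCD45KO, at 132 and 65.05 CPM, a log2 ratio of -1.02 (-1.51 to -0.52). Their shallower cluster, at 12.6 and 22.8 CPM, held only 3 and 14 UMIs, a log2 ratio of 0.86 (-0.98 to 3.30). Cells of the vessel lining carried little: EC-like cells held 2.34 and 5.10 CPM.

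The fibroblast-like class hid an opposite order in its 2 clusters. F3 was lower in EC-iCD45KO in the deeper cluster, led by Ren1, C7 and Chl1, at 281 CPM (257 to 308) against 193 CPM (178 to 209). It was higher in the shallower cluster, led by C7, Inmt and Dpep1, at 106 CPM (91.8 to 122) against 149 CPM (129.5 to 171). The deeper cluster supplied 48.0% of the class's UMIs in WT and 68.6% in EC-iCD45KO. Another cluster, led by Saa3, Chl1 and Ccl19 and nearest to fibroblasts by its markers, stayed unnamed. It held 161 WT and 1416 EC-iCD45KO cells, which are not in the class. After each cell was thinned to 1000 UMIs, 15.1% of 1203 WT and 17.0% of 945 EC-iCD45KO fibroblast-like cells had an F3 UMI (18.3% and 21% without thinning). In B-like cells, a class that should lack tissue factor, the thinned share was 0.0750% and 0.322% at median depths of 2000 and 2557 UMIs, against 1240 and 1246 UMIs in fibroblast-like cells. SMC-like cells carried the 13 fibroblast markers at 46.4% and 28.5% of the fibroblast-like level but F3 at 2.83% and 3.60% of it. Neutrophil-like cells carried the markers at 2.42% and 1.79% and F3 at 47.5% and 28.9%. Schwann-like cells carried the markers at 19.1% and 12.8%, with 5 of the 13 at 0 in WT, and F3 at 64.8% and 79.9%.

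F3 lies at chr3:121723537-121735048 on the plus strand (GENCODE M21 on GRCm38, which mm10 names). Promoter windows from RefSeq (GRCm38.p6) were matched for 7 of the 9 genes; Vwf and Plat were not matched. Of 6 motifs searched on both strands in the 250 bases before the start, the AP-1 motif TGANTCA, which is its own reverse complement and is bound by Fos and Jun proteins, is shown because F3, Plaur and Procr held it, 3 of the 7, against 6.75% of 32851 RefSeq windows of that length. This motif was picked after the matches were seen, and a match is a description of the letters only. The F3 window, chr3:121723287-121723536, plus strand, held 2 matches, printed in capitals, beginning at bases 105 and 116 from its 5′ end.
F3: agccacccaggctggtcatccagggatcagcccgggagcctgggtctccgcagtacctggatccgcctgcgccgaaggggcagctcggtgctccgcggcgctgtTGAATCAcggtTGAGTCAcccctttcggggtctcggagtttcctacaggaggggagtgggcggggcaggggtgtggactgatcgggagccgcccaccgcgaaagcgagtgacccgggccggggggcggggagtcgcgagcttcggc

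F7 and F10, the protease that tissue factor binds and the zymogen it activates, are neighbours in the genome and were both counted most in macrophage-like cells, but in different clusters of them and with different contrasts between the libraries. F7 lies at chr8:13026034-13035809 and F10 at chr8:13037308-13056676, both on the plus strand, with 1498 bp between them, and neither overlaps another gene of the matrices. Their upstream windows, chr8:13025784-13026033 for F7 and chr8:13037058-13037307 for F10, are shown for this pair of adjacent starts. Neither held the AP-1 motif, so both are in lower case. Each held 2 matches of the E-box motif CANNTG, which 66.2% of all windows hold.
F7: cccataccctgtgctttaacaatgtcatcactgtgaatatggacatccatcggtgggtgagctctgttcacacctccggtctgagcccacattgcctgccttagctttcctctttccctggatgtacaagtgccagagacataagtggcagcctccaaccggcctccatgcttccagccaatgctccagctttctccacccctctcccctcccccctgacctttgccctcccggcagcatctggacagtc
F10: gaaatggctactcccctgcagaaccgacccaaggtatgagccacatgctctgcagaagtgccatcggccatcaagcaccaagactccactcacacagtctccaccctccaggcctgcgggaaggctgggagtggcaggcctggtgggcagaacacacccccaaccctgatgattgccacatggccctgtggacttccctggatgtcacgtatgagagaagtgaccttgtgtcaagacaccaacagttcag

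F10 was concentrated in 1 macrophage cluster, the one led by Chil3, Arg1 and Cxcl3. It held 421 F10 UMIs in WT and 1900 in EC-iCD45KO, or 316 CPM (287 to 348) and 239 CPM (229 to 250.4). The foamy Trem2 cluster, led by Npy, Atp6v0d2 and Gdf3, stood at 16.1 and 17.0 CPM, and the resident-like Mrc1 cluster, led by Retnla and Negr1, at 1.74 and 6.20 CPM. An unresolved shallow cluster, whose leading genes included Chil3, stood at 61.9 and 44.8 CPM. Thus in both libraries the Chil3 and Arg1 cluster lay above the other macrophage clusters with no overlap of intervals. After thinning, 26.9% of its WT and 21.5% of its EC-iCD45KO cells had an F10 UMI (46.8% and 44.8% without thinning), against 0.0750% of WT B-like cells. This cluster made up 11.4% of macrophage-like cells in WT and 16.2% in EC-iCD45KO. Over the whole class F10 stood at 51.2 CPM (47.2 to 55.5) and 65.0 CPM (62.4 to 67.7), a log2 ratio of 0.34 (0.21 to 0.48) that became -0.37 when the 4 clusters were weighted equally. At the finer clustering the ratio within the clusters given the Chil3 and Arg1 name was 0.33 in place of -0.40. That set included a cluster led by Ifit1bl1, Slfn4 and Ifnb1, with 572 WT and 301 EC-iCD45KO cells. The ratios 0.33 and -0.40 therefore cover different cells.

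Outside macrophages, F10 was higher in the EC-iCD45KO library in several classes. Neutrophil-like cells held 19 UMIs in WT, 27.7 CPM (16.7 to 43.3), and 190 in EC-iCD45KO, 96.6 CPM (83.4 to 111), which is 3.49-fold higher with a log2 ratio of 1.80 (1.12 to 2.56). They thus lay below macrophage-like cells in WT and above them in EC-iCD45KO. Both neutrophil clusters were higher, at 35.8 against 115 CPM in the deeper and 12.6 against 57 CPM in the shallower. Macrophage markers moved in the same direction in these cells: the sum of 12 macrophage markers stood at 26.7% of the macrophage-like level in WT and 44.6% in EC-iCD45KO, with none at 0. F10 itself stood at 54.1% and 149% of the macrophage-like level. Lymphatic EC-like cells held 4 and 25 UMIs (8.19 and 45.6 CPM), 16.0% and 70.2% of the macrophage-like level, with the markers at 8.19% and 25.1%. EC-like cells stood at 11.2 and 18.4 CPM, 21.8% and 28.4% of the macrophage-like level, with the markers at 13.6% and 23.4%. The part of macrophage RNA in these differences was not tested.

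F7 was scarce in WT cells and clearly counted in EC-iCD45KO macrophages. Macrophage-like cells held 25 F7 UMIs in WT and 525 in EC-iCD45KO, or 2.14 CPM (1.38 to 3.15) and 14.6 CPM (13.3 to 15.9). The log2 ratio was 2.77 (2.19 to 3.41), a 6.81-fold difference, and 8 of the 9507 genes measured in the class, F7 included, were higher by as much. The foamy Trem2 cluster held 16 and 325 UMIs, 2.52 CPM (1.44 to 4.10) against 22.0 CPM (19.7 to 24.5). The Chil3 and Arg1 cluster held 9 and 177 UMIs, 6.76 CPM (3.09 to 12.8) against 22.3 CPM (19.1 to 25.8). The resident-like Mrc1 cluster held 0 UMIs in WT, which allows up to 1.04 CPM, and 10 in EC-iCD45KO, 0.953 CPM. The unresolved cluster held 0 UMIs in WT, which allows up to 2.61 CPM, and 13 in EC-iCD45KO, 4.55 CPM. F7 in the EC-iCD45KO library was therefore highest in 2 macrophage clusters, at 22.0 and 22.3 CPM, while F10 stood at 17.0 and 239 CPM in the same 2.

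Per cell, 4 of 2693 WT and 86 of 6508 EC-iCD45KO macrophage-like cells had an F7 UMI after thinning, 0.149% and 1.32% (0.656% and 3.34% without thinning). B-like cells had none in 5337 WT cells, which allows a share of up to 0.0562%. In the EC-iCD45KO library 79.7% of all F7 UMIs lay in macrophage-like cells, which were 35.4% of its cells. EC-like cells held 7 and 51 F7 UMIs (0.908 and 5.00 CPM), 42.5% and 34.3% of the macrophage-like level, and that difference was not called because the mean lay under 5 CPM.

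**Figure D2:**
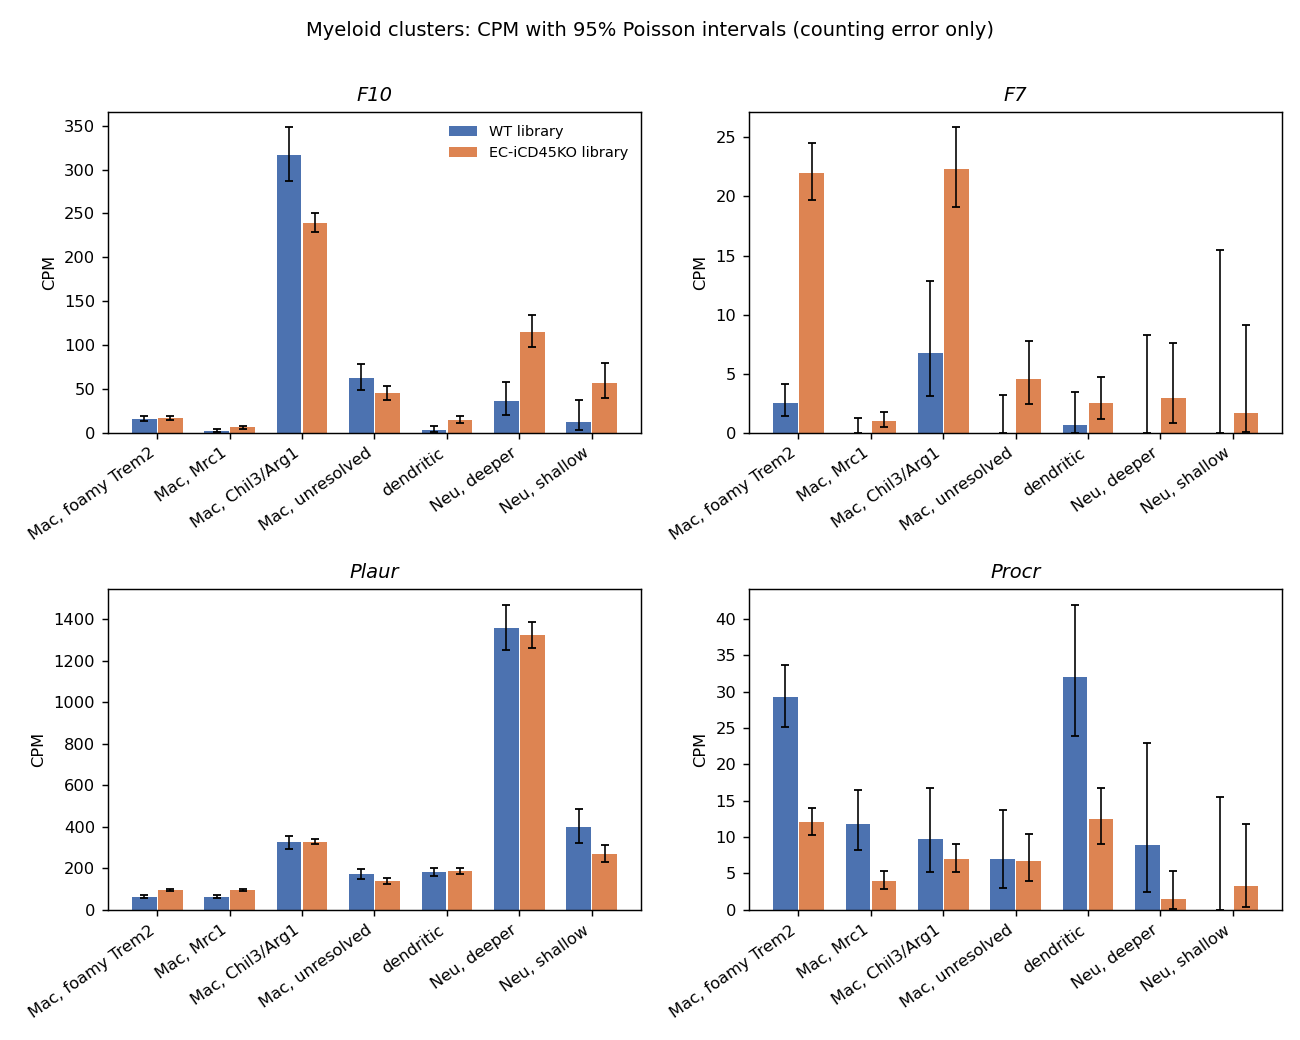
CPM of F10, F7, Plaur and Procr in the 4 macrophage clusters (Mac), the dendritic cell-like class and the 2 neutrophil clusters (Neu), as bars with exact 95% Poisson intervals, blue for the WT library and orange for the EC-iCD45KO library; each panel has its own axis from 0. F10 was highest in the Chil3 and Arg1 macrophages of both libraries, F7 stood near 22 CPM in 2 macrophage clusters of the EC-iCD45KO library, and Plaur was highest in the deeper neutrophil cluster.

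Tfpi, the inhibitor of the tissue factor and factor VIIa complex, was a gene of endothelial and fibroblast-like cells, and within endothelium it was a venous one. EC-like cells held 318 and 546 UMIs, with WT at 41.3 CPM (36.9 to 46.1) and EC-iCD45KO at 53.5 CPM (49.1 to 58.2). Lymphatic EC-like cells, at 43.0 and 47.5 CPM, did not differ from them beyond counting error in either library, and fibroblast-like cells followed at 28.5 and 40.7 CPM. The venous cluster, led by Ackr1, Csf3 and Selp, stood at 155 CPM (132 to 181) and 147 CPM (130.5 to 165). The arterial cluster, led by Sfrp1, Gkn3 and Gja5, stood at 10.2 and 16.9 CPM, and the capillary cluster, led by Gpihbp1, at 23.2 and 33.9 CPM. The venous level lay above the other EC-like clusters with no overlap of intervals in both libraries.

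Between the libraries, Tfpi was higher in EC-iCD45KO in several classes. Of those past 2-fold, SMC-like cells held the most Tfpi UMIs. They held 73 UMIs in WT, 8.92 CPM (6.99 to 11.2), and 336 in EC-iCD45KO, 26.1 CPM (23.4 to 29.1). The log2 ratio was 1.55 (1.18 to 1.94), 2.93-fold higher, and 67 of 10802 genes in the class (0.62%) were higher by as much. All 3 SMC clusters had the same order, at 7.86 against 18.8, 7.71 against 25.8 and 24.8 against 57.6 CPM. The 15 EC markers were at 5.86% and 6.18% of the EC-like level in these cells, and Tfpi at 21.6% and 48.8%. Macrophage-like cells stood at 6.16 and 11.9 CPM, 1.93-fold higher in EC-iCD45KO, just under the 2-fold threshold. In EC-like cells the log2 ratio was 0.38 (0.17 to 0.58), and in the venous cluster it was -0.08 (-0.36 to 0.21).

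Procr, the endothelial protein C receptor, showed the widest difference between the libraries among the gene and class pairs that averaged at least 20 CPM, and it lay in lymphatic EC-like cells. These held 153 UMIs in WT, 313 CPM (266 to 367), and 18 UMIs in EC-iCD45KO, 32.9 CPM (19.5 to 51.9). The EC-iCD45KO level was 9.53-fold lower, with a log2 ratio of -3.25 (-4.05 to -2.54). Of the 11181 genes measured in the class, 166 (1.48%) were lower by as much. After thinning, 22.5% of 160 WT cells and 3.42% of 117 EC-iCD45KO cells had a Procr UMI (23.9% and 6.79% without thinning), against 0.131% of WT B-like cells. The lymphatic class held 251 and 221 cells, and its markers, such as Prox1 and Mmrn1, summed to 14820 CPM in WT and 19810 CPM in EC-iCD45KO. In the same cells the fibroblast markers summed to 2479 and 582 CPM, and their part in the Procr difference was not tested; fibroblast-like cells themselves held Procr at 19.0 and 13.5 CPM.

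Blood vascular EC-like cells also carried less Procr in the EC-iCD45KO library. The class stood at 136 CPM (128 to 145, 1051 UMIs) and 60.7 CPM (56.0 to 65.7, 619 UMIs), 2.25-fold lower with a log2 ratio of -1.17 (-1.31 to -1.02). Of 10931 genes in the class, 315 (2.88%) were lower by as much. The arterial cluster, the highest of the 4 in both libraries, stood at 295 CPM (274 to 318) and 136 CPM (119 to 155). The venous cluster stood at 141 and 91.1 CPM, the shallow unresolved cluster, led by Glycam1 and Ackr1, at 57.3 and 27.1 CPM, and the capillary cluster at 33.3 and 40.1 CPM. Procr was thus lower in EC-iCD45KO in 3 of the 4 clusters and the capillary intervals overlapped. Arterial cells were 32.7% of EC-like cells in WT and 18.2% in EC-iCD45KO, and with the 4 clusters weighted equally the log2 ratio was -0.84, which is under 2-fold. Among EC-like cells 9.84% and 4.67% had a Procr UMI after thinning (16.2% and 8.96% without).

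The lower Procr level extended to several other classes, but not to all beyond counting error. Fibroblast-like cells had a log2 ratio of -0.49 (-1.02 to 0.03) and Schwann-like cells one of -0.86 (-2.41 to 0.97). SMC-like cells stood at 36.9 CPM (32.9 to 41.3) and 15.7 CPM (13.6 to 18), 2.35-fold lower, with lower levels in 2 of the 3 clusters. The deep contractile cluster, led by Wnt16 and Cnn1, stood at 36.9 CPM and 6.83 CPM, 5.40-fold lower, and the shallow cluster, led by Cnn1 and Tafa1, at 19.4 and 10.7 CPM, a log2 ratio of -0.86 (-1.58 to -0.14). The cluster led by Higd1b and Notch3 stood at 88.4 and 114 CPM with overlapping intervals. With SMC clusters weighted equally the log2 ratio was -0.14 in place of -1.23, and with the mean of single-cell CPM it was -0.94. Dendritic cell-like cells stood at 32.0 and 12.5 CPM, and macrophage-like cells at 20.5 and 8.13 CPM, 2.57-fold and 2.52-fold lower. The macrophage call was lost with equal cluster weights, and the intervals of the Chil3 and Arg1 cluster (9.77 and 6.93 CPM) and of the unresolved one (6.97 and 6.65 CPM) overlapped. In macrophage-like cells the EC markers were at 2.14% and 2.25% of the EC-like level while Procr was at 15.0% and 13.4%.

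Procr lies at chr2:155751117-155755471 on the plus strand. The part of its upstream window that precedes both the RefSeq and the GENCODE start, chr2:155750967-155751116, holds 1 AP-1 match, in capitals, beginning at base 97, and is shown because Procr had the widest contrast.
Procr: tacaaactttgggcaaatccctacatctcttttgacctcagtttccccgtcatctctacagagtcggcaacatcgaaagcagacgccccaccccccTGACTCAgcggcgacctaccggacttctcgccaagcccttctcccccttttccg

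Pros1, protein S, was spread over endothelial, Schwann-like, fibroblast-like, smooth muscle, chondrocyte-like and macrophage-like cells. Lymphatic EC-like cells were highest in both libraries, with 59 and 99 UMIs, 121 CPM (92.0 to 156) and 181 CPM (147 to 220.0). Schwann-like cells stood at 88.8 and 66.2 CPM on 18 and 68 UMIs, and their WT interval overlapped that of lymphatic EC-like cells. EC-like cells stood at 68.0 and 76.8 CPM, fibroblast-like cells at 54.0 and 71.1 CPM and SMC-like cells at 56.4 and 62.9 CPM. Chondrocyte-like cells stood at 43.1 and 45.2 CPM and macrophage-like cells at 40.2 and 36.7 CPM. B-like cells, at 1.62 and 1.10 CPM, were lowest. The 4 EC-like clusters ranged from 54.7 to 88.1 CPM in WT and from 63.0 to 100.5 CPM in EC-iCD45KO, with the unresolved cluster lowest, then arterial, capillary and venous in both libraries, although neighbours in that order overlapped. Log2 ratios between the libraries were 0.17 (0.01 to 0.34) in EC-like, 0.58 (0.10 to 1.07) in lymphatic EC-like and -0.13 (-0.28 to 0.03) in macrophage-like cells, each under 2-fold.

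Vwf had the widest lead of 1 class over the next among the 9, with EC-like cells 6.35-fold above Schwann-like cells in the mean of both libraries. A lead of 2-fold or more was held by Vwf and Plaur, against 18.9% of the 10028 genes that reached 20 CPM in some class, and by 1.78% of them in EC-like cells. EC-like cells held 1667 UMIs in WT, 216 CPM (206 to 227), and 1744 in EC-iCD45KO, 171 CPM (163 to 179). Lymphatic EC-like cells, by contrast, stood at 8.19 and 12.8 CPM. After thinning, 14.0% and 11.3% of EC-like cells had a Vwf UMI (21% and 16.3% without), against 0.244% of WT B-like cells, at median depths of 1425, 1275 and 2000 UMIs.

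Within EC-like cells, Vwf was high in arterial and venous and low in capillary cells. The arterial cluster stood at 366 CPM (342 to 392) and 452 CPM (420.5 to 485), and the venous cluster at 349 CPM (314 to 387) and 264 CPM (241 to 288). Capillary cells stood at 63.0 and 58.3 CPM with overlapping intervals, and the unresolved cluster at 126 and 79.0 CPM. As a class, EC-like cells of EC-iCD45KO were 1.26-fold lower, with a log2 ratio of -0.34 (-0.44 to -0.24), although its arterial cluster was higher by 0.30 (0.16 to 0.44), and the arterial share of the class was smaller. At the finer clustering the arterial log2 ratio was -0.26, so its direction rests on where the arterial cluster is drawn. SMC-like cells held 32 and 126 Vwf UMIs, 3.91 and 9.80 CPM, 2.51-fold higher in EC-iCD45KO, a call lost when the SMC clusters were weighted equally. These levels were 1.81% and 5.73% of the EC-like level, below the 5.86% and 6.18% of the EC markers in the same cells.

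**Figure D3:**
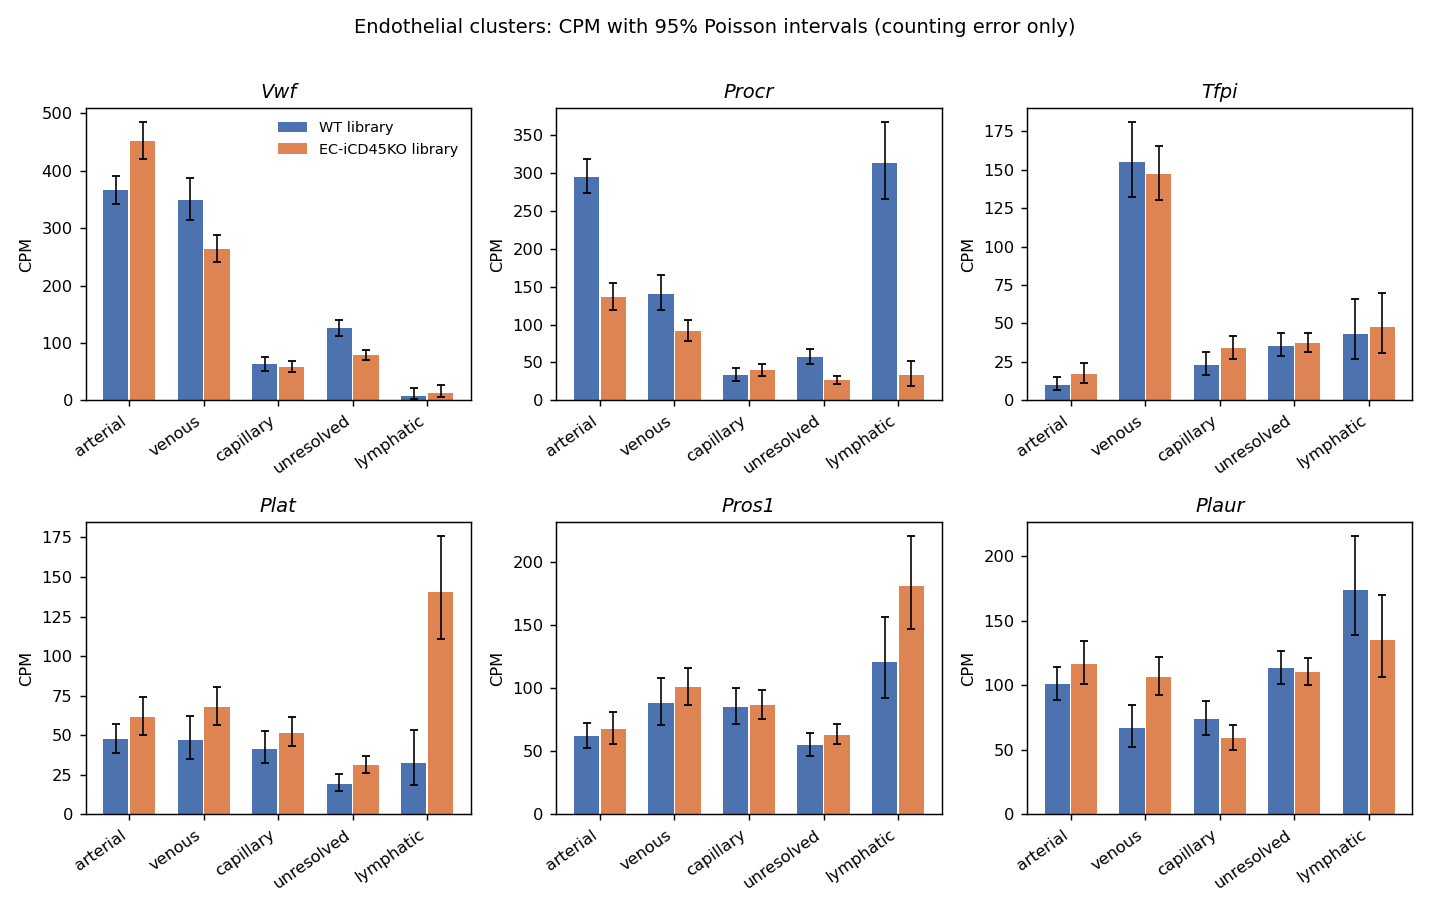
CPM of 6 of the genes in the 5 endothelial clusters, as bars with exact 95% Poisson intervals, blue for the WT library and orange for the EC-iCD45KO library; each panel has its own axis from 0. Tfpi was highest in the venous cluster of both libraries, and Vwf was high in the arterial and venous clusters. Procr was highest in the lymphatic and arterial clusters of the WT library and in the arterial cluster of the EC-iCD45KO library. Lymphatic cells showed Procr at 313 and 32.9 CPM and Plat at 32.8 and 141 CPM.

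Plat, tissue plasminogen activator, was higher in the EC-iCD45KO library in lymphatic EC-like and SMC-like cells. Lymphatic EC-like cells held 16 UMIs in WT, 32.8 CPM (18.7 to 53.2), and 77 in EC-iCD45KO, 141 CPM (111 to 176). The level was 4.29-fold higher, a log2 ratio of 2.10 (1.31 to 2.98), and 275 of 11181 genes (2.46%) were higher by as much. Lymphatic cells thus differed in opposite directions for the plasminogen activator and for the protein C receptor, while Tfpi, at 43.0 and 47.5 CPM, differed by less than counting error. SMC-like cells held 168 and 548 Plat UMIs, 20.5 CPM (17.5 to 23.9) and 42.6 CPM (39.1 to 46.4), 2.08-fold higher. The same order was seen in all 3 SMC clusters, at 12.7 against 26.6, 22.8 against 50.3 and 19.5 against 35.2 CPM, with overlapping intervals in the last.

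Elsewhere Plat was less apart. EC-like cells stood at 36.6 CPM (32.5 to 41.1) and 48.2 CPM (44.1 to 52.7), and fibroblast-like cells at 41.4 and 53.6 CPM. Schwann-like cells, at 54.3 and 42.9 CPM with 11 and 44 UMIs, overlapped between the libraries. In WT the Schwann-like, fibroblast-like, EC-like and lymphatic EC-like levels overlapped, whereas in EC-iCD45KO the lymphatic level lay above the others without overlap. Erythroid-like cells held 0 Plat UMIs in both libraries, which allows up to 6.62 and 9.84 CPM.

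Plaur, the urokinase receptor, was a gene of neutrophil-like cells, 3.40-fold above the next class, and hardly differed there between the libraries. Neutrophil-like cells held 702 UMIs in WT, 1024 CPM (950 to 1103), and 1955 in EC-iCD45KO, 994 CPM (951 to 1039), a log2 ratio of -0.04 (-0.17 to 0.08). A lead of 2-fold or more in neutrophil-like cells was held by 3.11% of 10028 genes. After thinning, 55.5% and 49.7% of neutrophil-like cells had a Plaur UMI (57.2% and 51.0% without). The share was 7.5% and 5.88% in plasma-like cells, a lymphoid class with a low level, which held 239 and 9 Plaur UMIs before thinning. The deeper neutrophil cluster stood at 1358 and 1323 CPM and the shallower at 398 and 269 CPM.

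B-like cells came second for Plaur in both libraries, with 4440 UMIs in WT, 342 CPM (332 to 352), and 230 in EC-iCD45KO, 252 CPM (221 to 287). Neutrophil markers were at 0.0908% and 0.173% of the neutrophil-like level in B-like cells, with Cxcr2, Retnlg and Mmp9 at 0 in EC-iCD45KO, while Plaur was at 33.4% and 25.4% of it. T/NK-like cells, at 55.6 and 79.2 CPM, and plasma-like cells, at 53.2 and 39.9 CPM, were lower than B-like cells without overlap. Among the WT library's 12079 Plaur UMIs, 36.8% lay in B-like cells. Of the 11346 in EC-iCD45KO, 47.6% lay in macrophage-like cells, so that the library totals of 141 and 137 CPM were close while the classes that held the UMIs differed, as did the cells recovered.

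Macrophage-like cells carried more Plaur in EC-iCD45KO, at 104 CPM (97.9 to 109.6) and 150 CPM (146 to 154), 1.45-fold higher. The foamy Trem2 cluster stood at 63.1 and 94.1 CPM and the resident-like Mrc1 cluster at 63.6 and 95.8 CPM. The Chil3 and Arg1 cluster, the highest of the class, stood at 325 CPM (295 to 357) and 329 CPM (316 to 342) and did not differ beyond counting error. With the 4 clusters weighted equally the class ratio was 0.08 in place of 0.53 on the log2 scale. Dendritic cell-like cells, at 181 and 188 CPM, and EC-like cells, at 94.5 and 97.4 CPM, overlapped between the libraries, and fibroblast-like cells stood at 89.2 and 59.0 CPM.

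Plaur lies at chr7:24462484-24475968 on the plus strand. Its upstream window, chr7:24462233-24462482, is shown because Plaur and F3 were both counted in neutrophil-like cells and both hold the AP-1 motif. It has 1 match, in capitals, beginning at base 182.
Plaur: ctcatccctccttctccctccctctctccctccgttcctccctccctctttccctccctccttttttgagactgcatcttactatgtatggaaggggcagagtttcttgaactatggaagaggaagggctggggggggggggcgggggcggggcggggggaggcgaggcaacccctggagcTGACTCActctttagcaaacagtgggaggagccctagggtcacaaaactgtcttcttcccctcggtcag

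Over the 13 classes, every gene of the 9 but Pros1 passed 2-fold between the libraries in some class. The share of all genes that did so in any class was not counted, so that count has no background. F3 passed only in plasma-like cells (9 and 7 UMIs) and Plaur only in chondrocyte-like cells (190 and 18 UMIs). A call was made only where a gene averaged 5 CPM or more in the class. In EC-like cells 7 of the 9 had that level: none was higher in EC-iCD45KO, against 1.6% of all 10931 genes, and Procr was lower, against 3.54%. In macrophage-like cells F7 was higher (0.81% of genes) and Procr lower (1.49%) among 7. In SMC-like cells Vwf, Tfpi and Plat were higher (1.89%) and Procr lower (3.1%) among 8. Lymphatic EC-like cells had Plat and F10 higher (9.74%) and Procr lower (11.5%) among 8, neutrophil-like cells had F10 higher (6.13%) and none lower (10.5%) among 6, and dendritic cell-like cells had F10 higher (2.74%) and Procr lower (4.32%) among 4. Fibroblast-like cells had none of 8 in either direction (1.94% and 5.09%). Among the remaining classes, Schwann-like cells had Tfpi and F10 higher (13.2%) and Vwf lower (14.3%) among 8. Their UMIs were 3 and 37 for Tfpi, 1 and 26 for F10 and 10 and 12 for Vwf. The intervals of Tfpi and F10 there spanned 0. Chondrocyte-like cells had Tfpi and F10 higher (5.95%) and Vwf, Procr and Plaur lower (8.6%) among 7. Their UMIs were 17 and 9 for Tfpi and 11 and 5 for F10. Vwf had 26 and 1, Procr 54 and 1 and Plaur 190 and 18, and the intervals of F10 and Vwf spanned 0. Erythroid-like cells had Vwf, Tfpi and F10 higher (14.4%) and none lower (18.1%) among 6. Plasma-like cells had F3 and F10 higher (10.6%) and Vwf lower (22.7%) among 5, on 9 and 7, 16 and 6, and 50 and 0 UMIs; the count of 0 allows up to 13.3 CPM, above the 11.1 CPM of the WT library. Neither the 1 measured member of B-like cells (3.03% and 1.89%) nor the 2 of T/NK-like cells (6.03% and 2.21%) passed. The erythroid-like calls rested on 5 and 11 UMIs for Vwf, 2 and 3 for Tfpi and 2 and 5 for F10, with intervals that spanned 0 for Tfpi and F10, and EC markers in these cells summed to 457 and 1247 CPM. The sum of macrophage markers was higher in EC-iCD45KO in each of the 13 classes, whether or not F10 was called there. Among classes with an F10 call it was 2614 and 5000 CPM in dendritic cell-like and 2068 and 12710 CPM in Schwann-like cells. It was 6769 and 18660 CPM in erythroid-like and 3444 and 8322 CPM in plasma-like cells. Without an F10 call it was 1514 and 4079 CPM in SMC-like, 962 and 2371 CPM in T/NK-like and 541 and 758 CPM in B-like cells. The part of macrophage RNA in the F10 values was not tested. At a threshold of 1.5-fold, F10 was higher (4.74%) and Procr lower (7.52%) in EC-like cells, and F7 and Tfpi were higher (2.79%) and Procr lower (3.84%) in macrophage-like cells. Median log2 ratios of the measured members were 0.17 in EC-like, 0.34 in macrophage-like and 0.60 in SMC-like cells, beside -0.02, -0.04 and -0.07 over all genes.

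**Figure D4:**
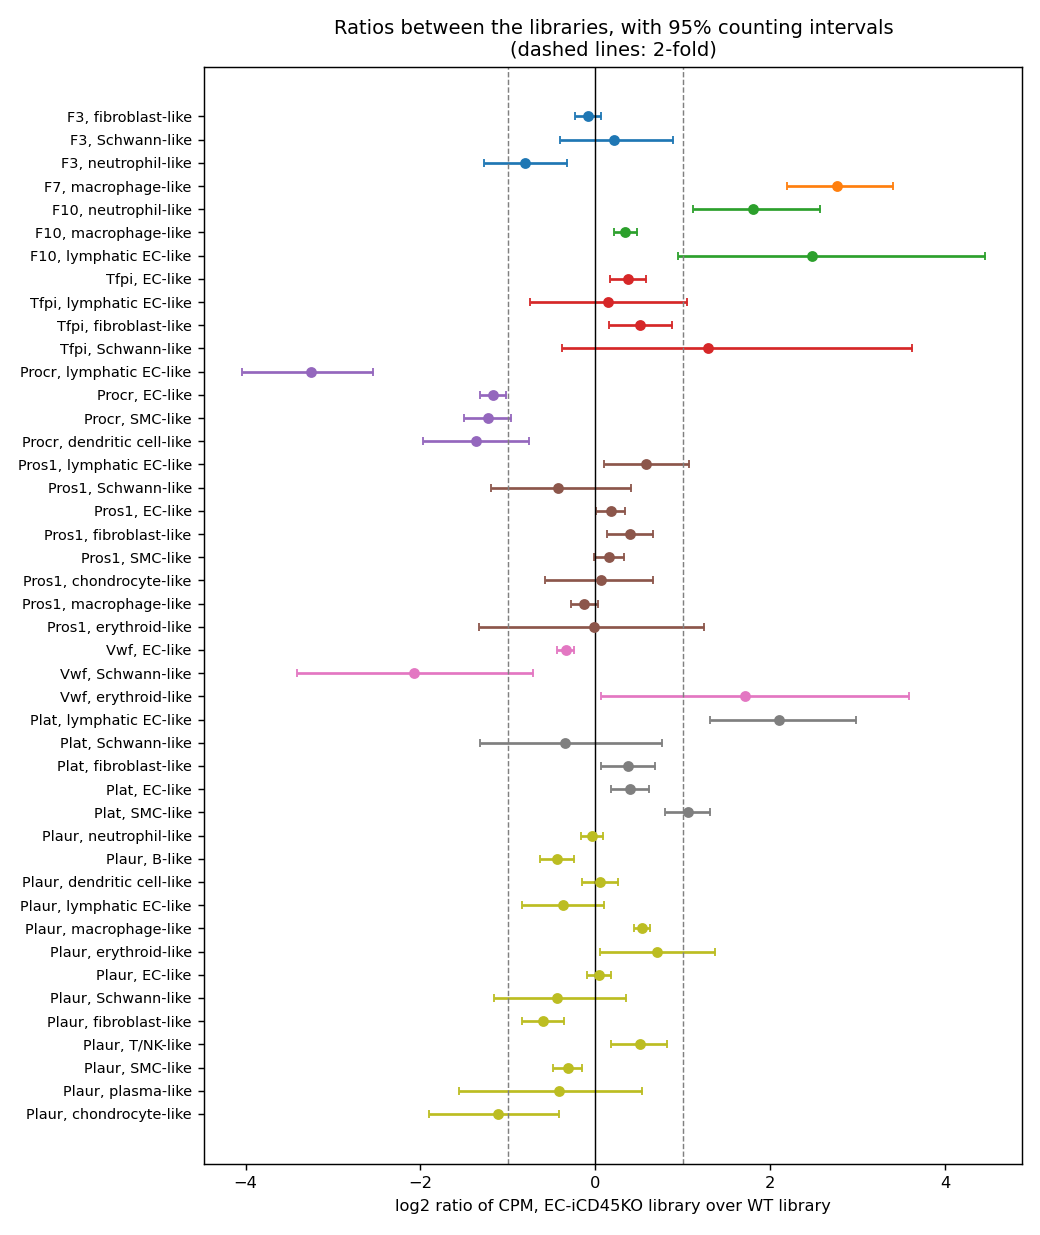
Log2 ratio of CPM, EC-iCD45KO over WT library, for 44 pairs of gene and class (those with a mean of at least 20 CPM, and F7 in macrophage-like cells), each point with its exact 95% counting interval; dashed lines mark 2-fold. Of the points, 7 lie at or above 2-fold higher and 6 at or below 2-fold lower, Procr makes up 4 of the latter, and wide bars belong to classes with few UMIs.

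The other genes of the pathway were taken from a list of 54 that includes the 9. In EC-like cells 24 of the 54 had at least 5 CPM. Of these, 2 were higher by 2-fold (Tfpi2 and Plau, against 1.6% of all genes) and 1 lower (Procr, against 3.54%). Their median log2 ratio was 0.16 against -0.02 over all genes. Plau, urokinase, stood at 10.6 and 23.6 CPM, a log2 ratio of 1.15 (0.78 to 1.53). It was also higher by 2-fold in Schwann-like, chondrocyte-like, dendritic cell-like, erythroid-like and neutrophil-like cells. Macrophage markers in EC-like cells were at 13.6% and 23.4% of the macrophage-like level, and their part in the Plau values was not tested. Thbd, thrombomodulin, which turns thrombin toward protein C and so acts beside Procr, stood at 95 and 115 CPM, higher in EC-iCD45KO by 0.27 (0.14 to 0.41) on the log2 scale. F8, factor VIII, which Vwf carries in plasma, stood at 40.0 and 26.1 CPM, a log2 ratio of -0.62 (-0.86 to -0.37). Serpine2, an inhibitor of thrombin and plasminogen activators, stood at 58.0 and 38.2 CPM. The plasminogen-binding pair Anxa2 and S100a10 stood at 500.4 and 781 CPM and at 590.3 and 756 CPM.

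In the other classes the list held its own peaks. Fibroblast-like cells had 3 of 25 measured genes higher by 2-fold (Kng1, Kng2 and Serpinb2) and none lower, against 1.94% and 5.09% of all genes. Kng2, a kininogen gene, stood there at 52.9 and 124 CPM, and F2r, the thrombin receptor, at 26.6 and 51.5 CPM. Gas6, a vitamin K-dependent relative of Pros1, stood at 342 and 578 CPM. Neutrophil-like cells had 3 of 18 higher (F10, Gas6 and Plau), Plau with 3 and 102 UMIs, and none lower, against 6.13% and 10.5% of all genes, with macrophage markers at 26.7% and 44.6% of the macrophage-like level. Macrophage-like cells carried F13a1, the clot-linking factor XIII subunit, at 141 and 92.4 CPM. The genes of the vitamin K cycle, Vkorc1 and Vkorc1l1, stood at 106 and 102 CPM and at 36.9 and 40.8 CPM in EC-like cells, and the plasminogen receptor Plgrkt at 57.8 and 45.1 CPM. Fga, Serpina5 and Serpina10 had 0 UMIs in every named class of both libraries.

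For each member with at least 20 CPM in some class, the 3 genes with the closest pattern over 26 points (13 classes in 2 libraries) were taken from 10028 genes by Pearson's r of log2(CPM + 1). The points share their 2 libraries and each class counts at both, so r is a description. Vwf was nearest to Sox17 (0.925), an endothelial transcription factor, then Myrip and Cd300lg. F10 was nearest to Pla2g7 (0.939), Hmox1 and Fcgr3, Plaur to Mcl1 (0.903), Gm14963 and Pik3ap1, and F3 to Abca8a (0.827), G0s2 and Pex5l. Sox17 and G0s2 were among the markers used to name clusters, so their pattern over the classes was partly set by the naming. Pros1 was nearest to Dst (0.959), Capn2 and Bag3, Plat to Bcar1 (0.931), Armcx1 and Dmtn, Tfpi to Fam20a (0.888), Rab13 and Cgnl1, and Procr to Plscr3 (0.867), Phf11d and Pir. F7 did not reach 20 CPM in the mean of any class.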

How the data were processed

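Single-cell RNA was measured in 2 libraries of CD31-enriched mouse aortic cells. The deposited matrices hold whole-number UMI counts per gene and barcode, written with Cell Ranger 7.1.0 on mm10, per the submitters' processing notes; whether intronic reads were counted is not given in the sources used here. Deposited totals were 92058043 (WT) and 88967918 (EC-iCD45KO) UMIs over 39849 and 30278 barcodes. The filter kept cells with 300 genes or more and a mitochondrial share of UMIs up to 10%. Scrublet's own threshold marked 2 of 39503 and 0 of 28960 cells and had not worked, so the top 10% of each library by doublet score was removed. Both libraries were clustered together on 2000 variable genes, 30 principal components, 20 neighbours and Leiden resolution 1, without the 9 genes, the pathway list and Ptprc. Clusters were named "X-like" where their markers exceeded the median cluster by a mean log2 of at least 1 and led the next class by 0.75, with 3 markers and 50 cells. Endothelial and macrophage clusters were named likewise, with a lead of 0.25. Naming thresholds and the doublet rule were chosen after looking at the data. Names rebuilt this way may differ from the study's own.

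UMIs were summed per class and library and scaled to CPM. Counts carry exact Poisson intervals, shares Clopper-Pearson intervals after thinning to 1000 UMIs per cell (shallower cells left out: 977 of 3415 WT and 1531 of 4206 EC-iCD45KO EC-like cells), and ratios exact conditional binomial intervals. A count of 0 allows up to 3 counts. UMIs of 1 library are not replicates, so no p-value was computed. Genes named from the pathway list had at least 20 CPM in EC-like, SMC-like, fibroblast-like or macrophage-like cells, and Tfpi2, Kng1, Serpinb2 and the 3 genes without UMIs were added after their values were seen. 1 gene of the list is not reported here. The members and lists were chosen with earlier results of these data known. Both libraries held Y-linked transcripts (Ddx3y 83.1 and 72.7 CPM) and 11 and 6 Xist UMIs. Intervals were tested on simulated data. Alternatives were a stricter filter, deeper cells, no doublet removal, resolution 2, TMM scaling, CPM without mitochondrial, ribosomal, haemoglobin and immunoglobulin genes, means of single-cell CPM, equal cluster weights, a 1.5-fold threshold, no minimum, and other thinning. Scanpy 1.11.5 and leidenalg 0.10.2 ran under Python 3.11.15 with pandas 2.3.3, scipy 1.17.1, numpy 2.4.6 and matplotlib 3.10.9, and edgeR 4.0.16 (TMM, in R 4.3.3) gave the scaling factors.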

Additional observations from a re-analysis of the deposited data

Results flagged for a closer look

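Vwf and Plaur each differed between the libraries in opposite directions among the classes where they averaged at least 20 CPM. The class farthest in each direction is given first. The log2 ratio of Vwf was 1.71 in erythroid-like cells (5 and 11 UMIs) and -2.08 in Schwann-like cells (10 and 12 UMIs). Vwf was also lower in EC-like cells, by -0.34 on 1667 and 1744 UMIs. The log2 ratio of Plaur was 0.71 in erythroid-like cells (40 and 44 UMIs) and -1.12 in chondrocyte-like cells (190 and 18 UMIs). Plaur was also higher in macrophage-like and T/NK-like cells and lower in B-like, SMC-like and fibroblast-like cells beyond counting error. The differences between these classes were not tested.

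The unnamed cells, which enter no comparison of the report, carried 6 of the genes that averaged at least 5 CPM there above the level in the WT library. Their CPM in EC-iCD45KO and WT was 25.8 and 21.1 for Vwf, 23.5 and 9.82 for F3, and 24.0 and 8.21 for Tfpi. It was 26.5 and 8.85 for Plat, 57.6 and 29.7 for Pros1, and 21.2 and 16.1 for F10. Procr, at 19.6 and 20.2 CPM, did not differ beyond counting error, with a log2 ratio of -0.04 (-0.31 to 0.22). Plaur was lower in EC-iCD45KO, at 95.3 and 128 CPM. F7, below that minimum, stood at 3.23 and 0.505 CPM. These cells were 11304 in WT and 4117 in EC-iCD45KO, and the make-up of their clusters differed between the libraries.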

How the results depend on the processing

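Of the 43 ratios that averaged at least 20 CPM, 34 kept their sign under all 9 alternatives, and the 12 past 2-fold all did. In EC-like cells, 1 member (F10) was higher at a 1.5-fold threshold, 1 (F7) with no minimum and 0.5 CPM added, and 0 were lower with equal cluster weights. In macrophage-like cells, 2 members (F7 and Tfpi) were higher without doublet removal, with TMM factors, with the mean of single-cell CPM, with equal weights and at 1.5-fold, and 0 were lower with equal weights. In SMC-like cells, 0 were lower with the mean of single-cell CPM or equal weights; equal weights also ended the Vwf call, and F10 was called higher under 4 alternatives. Of the pathway list, 4 genes were higher and 3 lower in EC-like cells at 1.5-fold, against 4.74% and 7.52% of all genes. The cause was not tested. The class with the highest level was compared under 6 further settings chosen after seeing the data, and 6 to 9 of the 9 members kept theirs. No paired analysis was possible because there was only 1 library in each group. Depth limits F7 and the lymphatic, Schwann-like, chondrocyte-like, erythroid-like and plasma-like values, which rest on few UMIs.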
